A study of Mus musculus with 16 samples.

Results

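Apoe, Apoc1, Apod and Clu encode apolipoproteins made in the brain, and they were followed here as 4 of the 32285 genes counted in nuclei of mouse hippocampus. They were chosen by symbol, and each matched 1 gene. Nuclei came from 16 libraries of female mice aged 9 months, and single-nucleus RNA sequencing with 10x Genomics chemistry counted unique molecular identifiers (UMIs), 1 per captured transcript. The libraries form 4 groups of 4, named by their Ch25h genotype, Ch25h+/+ or Ch25h-/-, followed by Tau- or Tau+. Ch25h encodes cholesterol 25-hydroxylase, which makes the oxysterol 25-hydroxycholesterol, and Tau+ or Tau- is the label of a tau line that is not named further. Neither its promoter nor the deleted part of Ch25h is given in the labels. The comparisons therefore ask how the 4 genes differ with tau and with the loss of Ch25h. Replicates are numbered in the order of deposit, and nothing says how animals map to libraries, so p-values measure the spread between these libraries.

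Apolipoproteins wrap lipids so that they can travel through fluid between cells. Apolipoprotein E is the main lipid carrier of brain fluid, is loaded with cholesterol by the transporters ABCA1 and ABCG1 and is taken up by cells through surface receptors. Apolipoprotein C1 travels on such particles and can block their uptake, apolipoprotein D is a lipocalin that binds small hydrophobic molecules such as arachidonic acid, and clusterin, the product of Clu, is a secreted chaperone that also carries lipid.

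In GRCm38, with genes from GENCODE M21, Apoe (ENSMUSG00000002985) spans 19696109 to 19699188 on the minus strand of chromosome 7, with up to 5 exons. Apoc1 (ENSMUSG00000040564) lies 3448 bases away on the same strand, at 19689481 to 19692660, with up to 4 exons. Apod (ENSMUSG00000022548) spans 31296192 to 31314808 on the minus strand of chromosome 16, with up to 6 exons. Clu (ENSMUSG00000022037) spans 65968483 to 65981547 on the plus strand of chromosome 14, with up to 9 exons. No other annotated gene overlaps any of the 4.

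The 250 bases before the start of Apoe (chr7:19699189-19699438, minus strand) and of Apod (chr16:31314809-31315058, minus strand) are shown because these 2 genes were high in different cell classes. Both come from RefSeq promoters of GRCm38.p6, run 5′ to 3′, and have CpG pairs in capitals. 2 of the 4 genes matched that table.
Apoe: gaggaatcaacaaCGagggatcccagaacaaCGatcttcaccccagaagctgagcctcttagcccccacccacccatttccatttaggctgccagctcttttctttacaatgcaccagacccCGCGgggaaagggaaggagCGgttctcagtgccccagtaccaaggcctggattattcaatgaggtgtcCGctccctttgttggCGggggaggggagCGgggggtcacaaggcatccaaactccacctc
Apod: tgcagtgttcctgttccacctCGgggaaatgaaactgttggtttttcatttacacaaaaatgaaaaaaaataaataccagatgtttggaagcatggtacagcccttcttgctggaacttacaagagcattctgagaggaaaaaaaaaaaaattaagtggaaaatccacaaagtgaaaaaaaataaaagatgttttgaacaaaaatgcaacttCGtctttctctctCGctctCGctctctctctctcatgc
The Apoe stretch is 57.2% G or C with 8 CpG pairs, and the Apod stretch is 36.4% G or C with 4, where the median of 32851 promoters of this length is 52.4% and 6. A search on both strands for TATAAA (the TATA box, found in 12.4% of those promoters), GGGCGG (the GC box, 32.7%), CCAAT (the CCAAT box, 33.8%), AGGTCA (a nuclear receptor core site, 14.0%), TGANTCA (the AP-1 site, 6.75%) and CACGTG (an E-box, 6.02%) found none of these letters in either stretch.

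The libraries held 51270831 to 84870650 UMIs over all barcodes and 8130 to 11654 nuclei each, 147873 in all, with a median of 3846 to 6508 UMIs per nucleus. A pair of libraries shared 10 to 40 nuclear barcodes. Ch25h itself did not separate the genotypes: it had 10 to 39 UMIs per library, and its mean level in CPM (UMIs per 1000000 UMIs of the same nuclei) was 0.208 ± 0.029 without tau and 0.452 ± 0.20 with tau in the Ch25h+/+ groups (SD, n = 4), and 0.368 ± 0.10 and 0.448 ± 0.12 in those labelled Ch25h-/-. The overlapping gene Gm26902 did separate them, at 0.591 CPM or more in each library labelled Ch25h+/+ and 0.418 or less in each labelled Ch25h-/-. Gm43049 read 67.4 to 87.0 CPM in Tau+ libraries and at most 0.202 in Tau- libraries. Along the first principal component of deviations from the group means, the first 2 replicates of every group had the opposite sign to the last 2 in most of the 9 classes tested: 9 libraries kept their side in 9 classes and 7 in 8. This component took 22 to 29.3% of the variance. The labels name no batch, and each side of this split holds 2 libraries of every group. In 1 library, Ch25h+/+ Tau- replicate 3, Apoe was far below all others, as described below, and the main levels and tests of Apoe are also given without it.

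Nuclei were clustered without the 4 genes and named from marker genes, which gave 15 classes with 120799 nuclei. Markers of the hippocampus were in place, with 22004 granule neurons of the dentate gyrus (DG) and 21109 pyramidal neurons of the CA fields. Microglia, astrocytes, fibroblasts, oligodendrocytes and their precursors (OPCs) were the other large classes, beside inhibitory and other excitatory neurons, and these 9 had at least 20 nuclei in every library. The smaller ones were border-associated macrophages, ependymal, endothelial, mural, Cajal-Retzius and choroid plexus epithelial cells. Free RNA was read from barcodes under 100 UMIs, where Apoe was on average 9.36 ± 1.9 times (SD, n = 16) its level in nuclei. The floor of empty barcodes, a median over a fixed range of low ranks, was 89 to 136 UMIs in replicates 1 and 2. In replicates 3 and 4 it was 66 to 82, so the cut at 100 took a different part of the background. What this changes in the free RNA shares and subtracted values was not tested. A class's free RNA was estimated from markers of other classes, and the share of a gene's UMIs that it could account for is given for the classes described. Levels are CPM of a class total per library and are compared within a gene only, since a 3′ count is no measure per length.

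Apoe was high in macrophages and astrocytes, lower in the other glia and in vascular cells, and within reach of free RNA in neurons. In border-associated macrophages, the phagocytes of the meninges and perivascular spaces, Apoe read 5243 ± 2499 CPM (SD, n = 16; 679 to 9226), of which free RNA could account for 5.07%. In astrocytes, the main source of apolipoprotein E in the brain, it read 3268 ± 969 (822 to 4729), with 9.62% accounted for. The macrophages were higher in 12 of 16 libraries, but rest on 471 nuclei, 6 to 66 per library, and the difference did not pass the test (exact sign-flip permutation test over libraries, two-sided, adjusted p = 0.115 over 56 neighbouring pairs).

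Ependymal cells followed at 1716 ± 594 CPM of Apoe (21.4% within free RNA), below astrocytes in 15 of 16 libraries (exact sign-flip test, adjusted p = 0.000342). Oligodendrocytes read 950 ± 359, microglia 925 ± 952, fibroblasts 913 ± 260, endothelial cells 760 ± 288 and OPCs 718 ± 229. No difference between neighbours in this order passed the exact sign-flip test (adjusted p = 0.126, 0.206, 0.229 and 0.783). Without Ch25h+/+ Tau- replicate 3 the mean of Apoe was 3431 ± 742 CPM in astrocytes (SD, n = 15), 1796 ± 520 in ependymal cells, 1001 ± 304 in oligodendrocytes and 983 ± 956 in microglia. The order of the classes by mean was the same over these 15 libraries, and each difference between neighbours stayed on its side of the threshold. Microglia spread most among them, from 66.5 to 3259 CPM with a median of 523. Free RNA could account for 21.6% of microglial Apoe over all libraries summed, 29.7% in oligodendrocytes, 34.8% in fibroblasts, 40.1% in OPCs and 57.6% in endothelial cells.

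Choroid plexus epithelium read 317 ± 143 CPM of Apoe, from 0 to 543, with 55.5% within free RNA. This class had 1 to 297 nuclei per library, with 7 or fewer in 3 libraries, and the 0 is from the library with 1 nucleus. Mural cells (343 ± 158 CPM of Apoe) and Cajal-Retzius cells (150 ± 90) were within reach of free RNA, at 98.5% and 100% accounted for. The 4 neuronal classes read 36.3 to 59.5 CPM on average, and 100% of it was accounted for in each. Astrocytes held 121591 of the Apoe UMIs in named nuclei, which is 56.9%. Oligodendrocytes held 13.2% and microglia 5.19%.

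**Figure D1:**
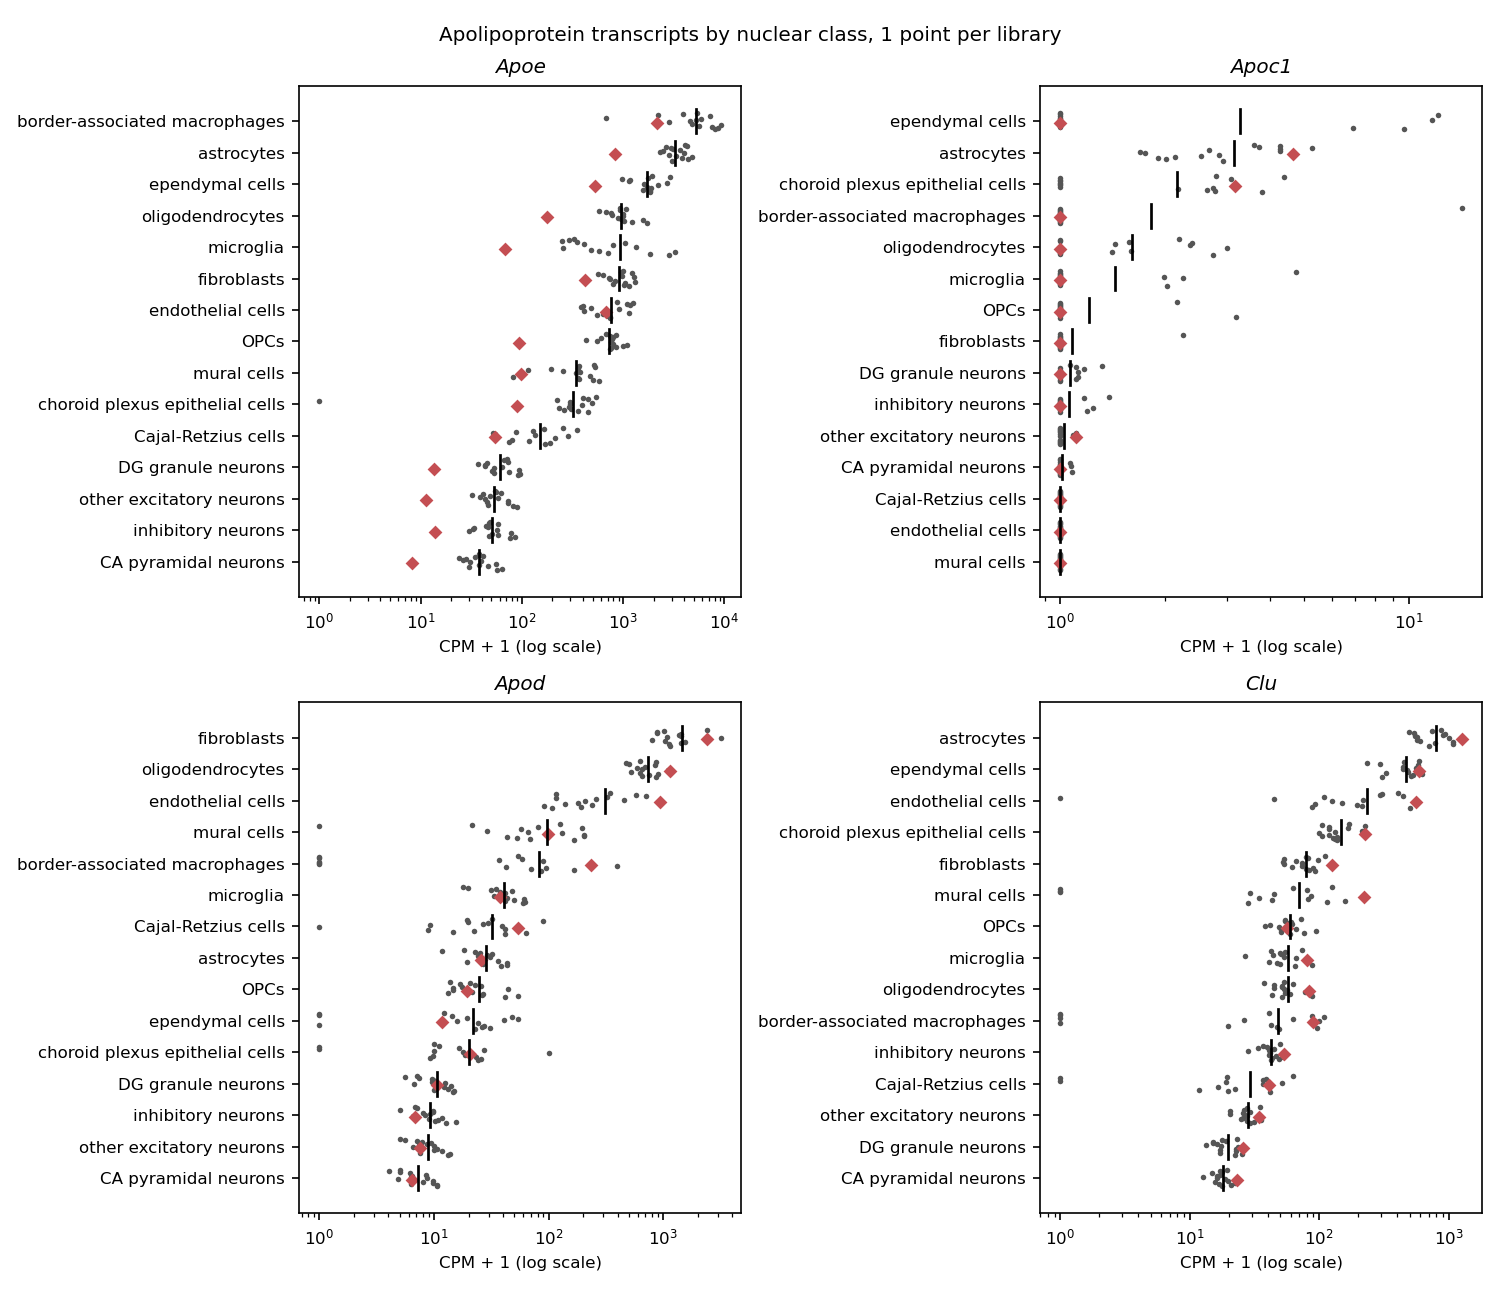
Level of each gene (x axis, CPM + 1, log scale) in 15 nuclear classes (y axis, ordered by mean), with 1 point per library, a black line at the mean and a red diamond for Ch25h+/+ Tau- replicate 3. Apoe is highest in border-associated macrophages and astrocytes, Apod in fibroblasts and oligodendrocytes, and Clu in astrocytes and ependymal cells, while Apoc1 is near 0 throughout.

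Apoc1 was almost absent from these nuclei. Its UMIs numbered 74 in 14129 astrocytes, where it read 2.16 ± 1.15 CPM (SD, n = 16) and was detected in every library, from 0.695 to 4.26. Astrocytes held 52.5% of its UMIs, oligodendrocytes 17 UMIs and choroid plexus epithelium 14, and free RNA could account for 6.92%, 20.6% and 5.69% in these classes. Ependymal cells had the highest mean, 2.28 ± 4.21 CPM, from 5 UMIs with a median of 0 over the libraries and 6.12% within free RNA. Cajal-Retzius, endothelial and mural cells had no Apoc1 UMI. Border-associated macrophages had 1 UMI and microglia 4, so a level in phagocytes could not be read at this depth.

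Apod was high in fibroblasts and oligodendrocytes, a pattern unlike that of Apoe. In fibroblasts of the meninges and vessels, Apod read 1447 ± 662 CPM (SD, n = 16; 805 to 3186), with 3.34% within free RNA. In oligodendrocytes, the myelin-forming cells, it read 735 ± 199 (469 to 1136), with 7.03% within free RNA. Fibroblasts were above oligodendrocytes in 16 of 16 libraries (exact sign-flip test, adjusted p = 0.000342). Oligodendrocytes held 58.1% of the Apod UMIs in named nuclei and fibroblasts 23.4%.

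A further part of Apod lay outside the named nuclei. Of 55078 Apod UMIs in all nuclei, 34.0% were in nuclei that stayed unnamed or were removed as doublets, against 15.3% for Apoe and 16.4% for Clu. A single cluster of 3847 nuclei held 19.5% of all Apod UMIs and had Apod among its 10 leading genes. It carried 8 of 8 oligodendrocyte markers but stayed unnamed by the rule on its 10 leading genes. These held Enpp6, a marker of newly formed oligodendrocytes, and no marker from the oligodendrocyte list. In these nuclei Apod read 1410 ± 466 CPM (SD, n = 16; 774 to 2403), above the named oligodendrocytes in 16 of 16 libraries, and Apoe read 466 ± 161, below them in 16 of 16. With this cluster joined to the oligodendrocytes, a choice made after seeing the data, their Apod level was 869 ± 240 CPM (513 to 1321). The comparison with fibroblasts was not redone with the cluster joined. Unless stated, levels, shares and tests for oligodendrocytes leave this cluster out.

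Endothelial cells came next at 310 ± 243 CPM of Apod, below oligodendrocytes in 14 of 16 libraries (exact sign-flip test, adjusted p = 0.00114), with 22% within free RNA. Mural cells read 95.1 ± 66 and border-associated macrophages 82.1 ± 105, with 59.9% and 62.4% accounted for. In microglia (40.1 ± 13), Cajal-Retzius cells (31.0 ± 23), astrocytes (27.3 ± 8.7), OPCs (23.6 ± 12), ependymal cells (20.9 ± 16) and choroid plexus (19.4 ± 23), free RNA could account for 100%. The same held in the 4 neuronal classes, at 6.28 to 9.51 CPM.

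Clu was an astrocyte and ependymal transcript in these nuclei. In astrocytes Clu read 793 ± 235 CPM (SD, n = 16; 493 to 1267), with 8.89% within free RNA, and astrocytes held 60.4% of its UMIs. Ependymal cells, which line the ventricles, read 465 ± 119 (16.3% within free RNA) and were lower in 15 of 16 libraries (exact sign-flip test, adjusted p = 0.000342). Endothelial cells read 233 ± 169 (37.2% within free RNA) and choroid plexus epithelium 145 ± 42 (27%), and their difference did not pass the exact sign-flip test (adjusted p = 1).

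In fibroblasts Clu read 78.6 ± 21 CPM, with 82.4% within free RNA. Mural cells, OPCs, microglia, oligodendrocytes and border-associated macrophages read 47.3 to 68.5 CPM, all of which free RNA could account for. Among neurons the inhibitory class stood above the rest at 41.7 ± 6.6 CPM of Clu, against 26.9 ± 4.4 in other excitatory neurons, 18.6 ± 4.0 in DG granule neurons and 16.9 ± 2.7 in CA pyramidal neurons. Free RNA could account for 87.4% of Clu in inhibitory neurons over all libraries summed and for 66.7 to 80.2% in the 4 groups taken singly. The estimate was 100% in the other neuronal classes. In all 4 neuronal classes the estimate for Apoe lay above its observed level, so these shares of Clu may be too high.

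**Figure D2:**
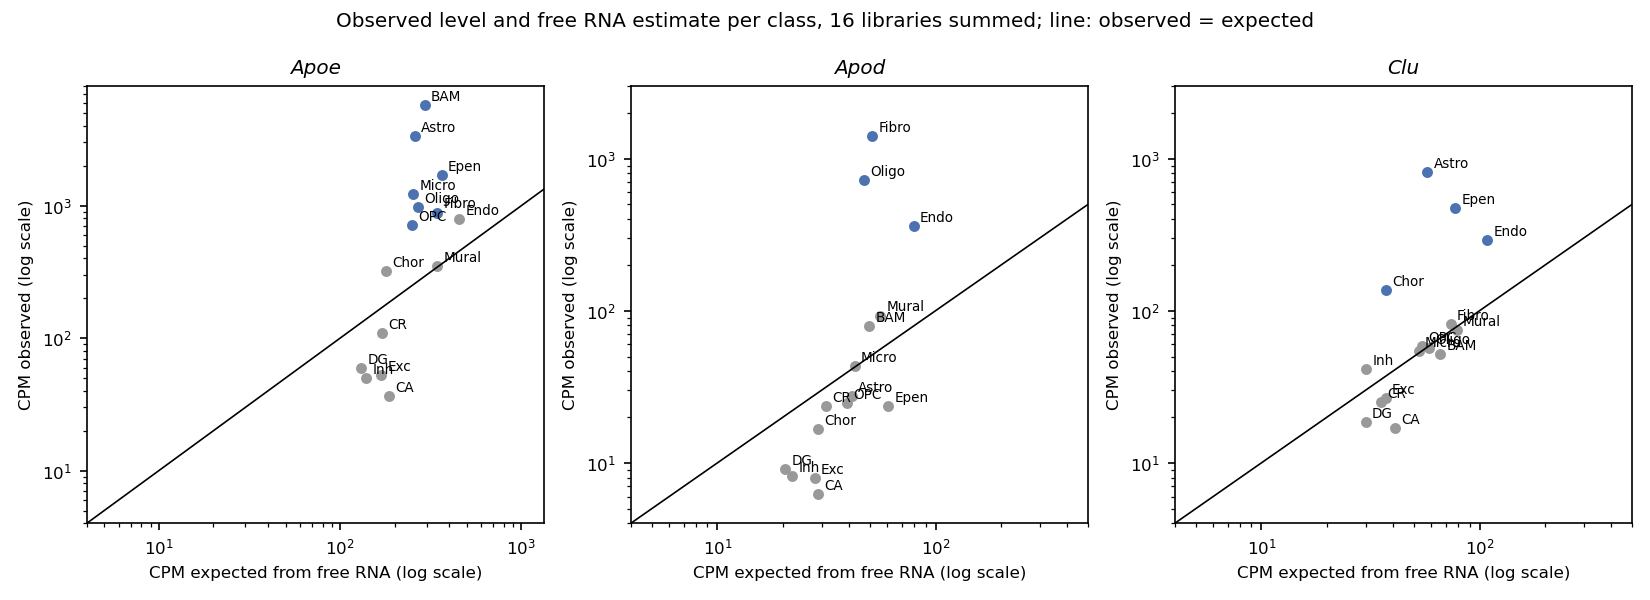
Observed CPM of a class (y axis, log scale) against the CPM expected from free RNA (x axis, log scale) for Apoe, Apod and Clu, 1 point per class with the 16 libraries summed, and a line where the values are equal. Blue points are over 2 times the expected value; names are shortened (BAM, border-associated macrophages; Exc, other excitatory neurons; Inh, inhibitory neurons; CR, Cajal-Retzius cells; Chor, choroid plexus), and neurons lie on or below the line except for Clu in inhibitory neurons.

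Per nucleus, Apoe was detected in 96.7% of astrocytes, with 66.6% holding 5 or more UMIs and a maximum of 136. It was also detected in 29.7% of CA pyramidal neurons, where free RNA could account for all of it. These nuclei are deeper (median 9603 UMIs against 2372 in astrocytes). With each nucleus thinned to 500 UMIs, the share was 71.9% in astrocytes, 61.4% in border-associated macrophages, 52.1% in ependymal cells, 35.6% in oligodendrocytes, 29.9% in OPCs, 26% in microglia and 2.22% in CA pyramidal neurons. No nucleus was left out by thinning, since each had 500 UMIs or more. Apod was detected in 71.6% of fibroblasts and 56.1% of oligodendrocytes (43.0% and 27.7% after thinning), against 5.20 to 6.03% of neurons (0.384 to 0.530%). Clu was detected in 74.5% of astrocytes (31.8% after thinning) and 27.2% of inhibitory neurons (2.34%, against 0.967% of CA pyramidal neurons). Apoc1 was detected in 0.467% of astrocytes, at most 3 UMIs per nucleus.

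The classes in which each gene is high also named the genes most like it. Over the mean levels of the 15 classes, log2(CPM + 1) was correlated between each gene and 13953 genes that reached 20 CPM in a class, and the 3 highest Pearson correlations are given as a description. Apod was most like Ptgds (r = 0.96), which encodes the lipocalin-type prostaglandin D synthase, then Atl3 (0.93) and Dctn6 (0.90). Clu was most like Gfap (0.92), the intermediate filament of astrocytes, A930005H10Rik (0.91) and Fgfr3 (0.90). Apoe was most like Gramd3, Senp1 and Fundc1 (each 0.93), and Apoc1 most like Slc25a21 (0.91), Gm20743 (0.90) and Ccdc146 (0.87), with Apoc1 resting on few UMIs. The classes share libraries and free RNA, so these values are not independent.

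In 1 library Apoe was low in every large class. In Ch25h+/+ Tau- replicate 3, astrocytes read 822 CPM of Apoe, where the other 15 libraries read 2307 to 4729 with a median of 3288, 4.0 times as much. Oligodendrocytes read 175 there against 571 to 1704 elsewhere, OPCs 91.7 against 432 to 1085, microglia 66.5 against 246 to 3259 and fibroblasts 417 against 558 to 1314. It was the lowest of 16 libraries for Apoe in all 9 classes tested and in ependymal cells, but not in the other small classes. In endothelial cells it read 671 CPM against a median of 736, with 6 of the other 15 libraries below it. In Cajal-Retzius cells 2 were below it, and 1 each in border-associated macrophages, mural cells and choroid plexus epithelium. In DG granule neurons, where free RNA could account for all Apoe, it read 12.6 against 35.5 to 95.3.

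The other members were not low in that library. Clu read 1267 CPM in its astrocytes, the highest of the 16, and was also highest there in DG granule, CA pyramidal and inhibitory neurons and in fibroblasts. Apod read 1136 in its oligodendrocytes, also the highest of the 16, and Apoc1 read 3.65 in its astrocytes against 0.695 to 4.26 elsewhere. Of 3501 genes at 50 CPM or more in astrocytes, 10 read there below 0.5 times the lowest other library, Apoe among them, as did 9 of 3435 in oligodendrocytes. Atxn7l3b and Vti1b were the 2 besides Apoe in both lists, named after their values were seen. In DG granule neurons 15 of 3416 genes were that low, and no other library had more than 1 such gene in astrocytes, oligodendrocytes or DG granule neurons. In microglia 25 of 4148 were, but Ch25h+/+ Tau- replicate 4 had 19 there, Ch25h-/- Tau- replicate 3 had 10 and Ch25h-/- Tau- replicate 4 had 7. In the DG granule neurons 6 mitochondrial genes, mt-Atp6, mt-Co1, mt-Co2, mt-Nd1, mt-Nd2 and mt-Nd4, also read over 2 times the highest other library. Tomm40, the neighbour of Apoe on the far side from Apoc1, read 22.8 CPM in astrocytes of that library against 20.6 to 82.9 in the others, whose median was 61.1. What set this library apart was not tested.

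**Figure D3:**
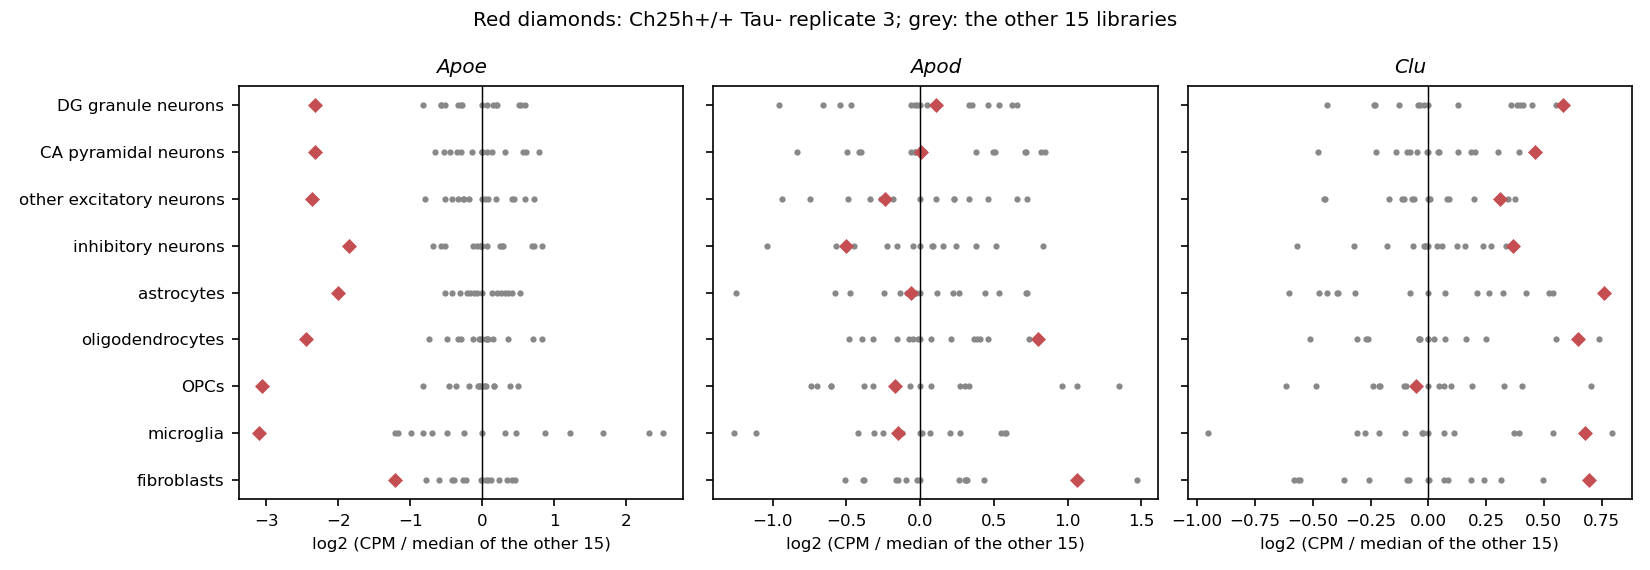
Level of Apoe, Apod and Clu in the 9 classes tested (y axis) as log2 of CPM over the median of the other 15 libraries (x axis), with Ch25h+/+ Tau- replicate 3 as red diamonds and the other libraries as grey points. For Apoe the red diamond is the lowest point in all 9 classes, while for Clu it is the highest in 5 of them and for Apod in oligodendrocytes.

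Microglial Apoe was higher with tau. Microglia of the 4 Ch25h+/+ Tau- libraries read 570, 476, 66.5 and 253 CPM of Apoe, and those of the 4 Ch25h+/+ Tau+ libraries read 2856, 1828, 713 and 3259. The libraries labelled Ch25h-/- read 352, 246, 288 and 323 without tau and 1336, 794, 405 and 1043 with it. Within each genotype every Tau+ library was above every Tau- library, as was so for 4.51% of the genes tested in microglia in Ch25h+/+ and 4.72% in Ch25h-/-. The third Tau+ library in deposit order was the lowest of its group in both genotypes.

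The mean of Apoe in microglia was 2164 ± 1140 CPM in Ch25h+/+ Tau+ against 341 ± 226 in Ch25h+/+ Tau- (SD, n = 4), a log2 fold change of 2.60 (SE 0.58, edgeR quasi-likelihood test, adjusted p = 0.0392). This was the 1 call among 27 pairs of a member and a class in this contrast (DESeq2 also called 1), where 0.258% of all genes tested over the classes were called, and in microglia 2.38%, or 1.6% counting higher ones alone. The edgeR call did not hold without Ch25h+/+ Tau- replicate 3 (2.27, adjusted p = 0.0826), and it was lost on leaving out any of 13 of the 16 libraries, with a range of 2.27 to 2.95 and adjusted p of 0.00724 to 0.129. Within replicates 1 and 2 the change was 2.13 (edgeR adjusted p = 0.0524) and within replicates 3 and 4 it was 3.66 (adjusted p = 0.472).

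In libraries labelled Ch25h-/- microglial Apoe averaged 894 ± 394 CPM with tau and 302 ± 46 without (SD, n = 4), a log2 fold change of 1.55 (SE 0.57) that was not called (edgeR adjusted p = 0.223). Averaged over both genotypes the tau effect was 2.08 (SE 0.40, edgeR adjusted p = 0.00667), in a contrast where 1.06% of all genes tested and 8.86% in microglia were called, 5.38% as higher. This edgeR call held without each library in turn (1.91 to 2.25, adjusted p = 0.00169 to 0.0184), and without Ch25h+/+ Tau- replicate 3 it was 1.91 (adjusted p = 0.0080). It was lost within replicates 3 and 4 alone (2.45, edgeR adjusted p = 0.402).

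Free RNA could account for 65.7% of microglial Apoe in Ch25h+/+ Tau- and 87.0% in Ch25h-/- Tau-, but for 13% in Ch25h+/+ Tau+ and 21.3% in Ch25h-/- Tau+. With it subtracted, the Tau+ libraries read 2060 ± 1169 and 796 ± 466 CPM (SD, n = 4) for Ch25h+/+ and Ch25h-/-, and the Tau- libraries 126 ± 164 and 60.6 ± 77. Refitted on these counts, the tau effect on microglial Apoe was 3.84 (SE 0.96, edgeR adjusted p = 0.0518) in Ch25h+/+, 3.75 (SE 1.06, adjusted p = 0.104) in Ch25h-/- and 3.8 (SE 0.71, adjusted p = 0.00503) on average, so the call in Ch25h+/+ was lost and the averaged one held. Without Ch25h+/+ Tau- replicate 3, a choice added after seeing the data, the Ch25h+/+ Tau- level of Apoe in microglia was 433 ± 163 CPM (SD, n = 3), or 160 ± 182 after subtraction. The refitted tau effect was then 3.52 (SE 1.04, edgeR adjusted p = 0.136) in Ch25h+/+ and 3.63 (SE 0.74, adjusted p = 0.0116) on average. Markers of border-associated macrophages, in which Apoe is high, summed to 22.6 to 87.0 CPM in microglia of Ch25h+/+ Tau+, 16.3 to 38 in Ch25h+/+ Tau-, 4.96 to 39.8 in Ch25h-/- Tau+ and 0 to 34.9 in Ch25h-/- Tau-. Of the 7 markers, 2 to 4 had no UMI in a group, Lyve1 among them in all but Ch25h+/+ Tau-, and the sum in the macrophages themselves was 6128. Astrocyte markers in microglia were no higher with tau, at 368 to 468 and 380 to 507 CPM against 467 to 689 and 529 to 696. The 10 markers of microglia were all present in every group. Their sum was lower on average with tau, at 9210 to 12744 CPM in Ch25h+/+ Tau+ and 9823 to 12805 in Ch25h-/- Tau+, against 11544 to 14385 and 11294 to 13923 in the Tau- groups. The part of these markers in the Apoe values was not tested.

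Apoe was also counted per nucleus in microglia, with no test. Nuclei with 5 or more Apoe UMIs made up 21.6% ± 13.2 of microglia in Ch25h+/+ Tau+ and 10.6% ± 7.6 in Ch25h-/- Tau+ (SD, n = 4), against 0.883% ± 1.4 and 0.421% ± 0.70 in the Tau- groups (1.18% ± 1.6 for the former without Ch25h+/+ Tau- replicate 3, n = 3). With nuclei thinned to 500 UMIs, 39.5% ± 15.9 and 24.5% ± 7.0 had an Apoe UMI with tau and 14.6% ± 8.7 and 13.3% ± 1.8 without. Median depths ran from 1345 to 1988.5 UMIs in Tau+ libraries and 1069 to 1564 in Tau- libraries. Among microglia with a UMI of Axl, Lpl, Itgax, Cst7 or Gpnmb, genes of activated microglia, Apoe read 4457 ± 975 CPM in Ch25h+/+ Tau+ (478 nuclei, 7 to 242 per library) and 1801 ± 597 in Ch25h-/- Tau+ (334 nuclei, 20 to 118). Microglia without such a UMI read 1493 ± 715 and 583 ± 184 there, against 343 ± 229 and 277 ± 33 in the Tau- groups, where only 12 and 17 nuclei had one, 1 to 7 per library, too few for a level. Depth was not matched between these nuclei: those with such a UMI were the deeper ones in each of the 8 Tau+ libraries (median 1616 to 2449.5 UMIs against 1271 to 1865.5), and their free RNA was not estimated.

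The loss of Ch25h gave no call for microglial Apoe. With tau, libraries labelled Ch25h-/- averaged 894 CPM against 2164, a log2 fold change of -1.27 (SE 0.53, edgeR adjusted p = 0.9998), and the groups overlapped through Ch25h+/+ Tau+ replicate 3 at 713. Without tau the change was -0.21 (SE 0.59, edgeR adjusted p = 1.0). The difference between the tau effects of the 2 genotypes was -1.06 (SE 0.79, edgeR adjusted p = 0.9999), so the effects were not shown to differ. With free RNA subtracted these 2 values for Apoe in microglia were -1.29 (SE 1.2, edgeR adjusted p = 0.9997) for Ch25h loss without tau and -0.09 (SE 1.51, adjusted p = 1.0) for the difference between the tau effects, which turned to 0.22 (SE 1.45, adjusted p = 1.0) without Ch25h+/+ Tau- replicate 3. The 2 tau effects and the 2 effects of Ch25h loss share their groups, so their values are not independent of each other.

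**Figure D4:**
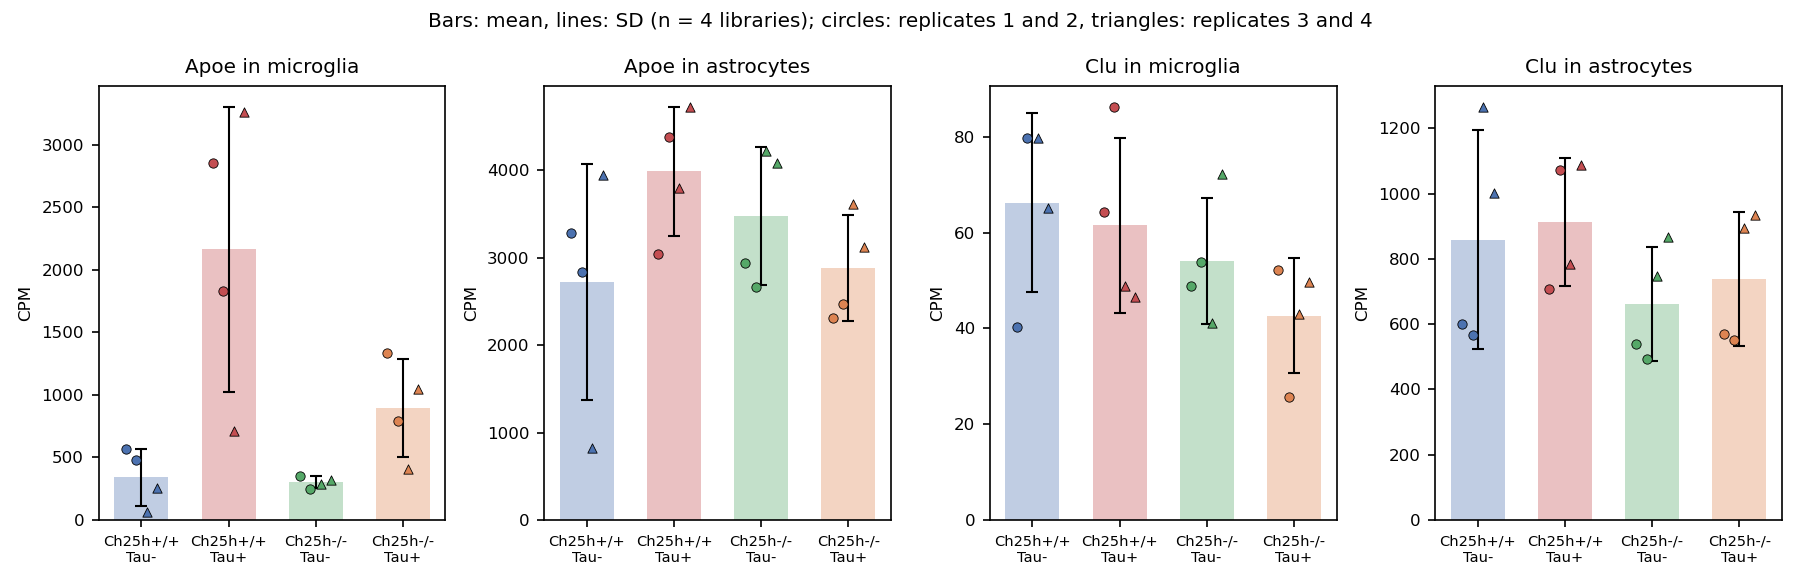
Apoe and Clu in microglia and astrocytes (y axis, CPM) in the 4 groups (x axis), with bars at the mean, lines for the SD (n = 4 libraries), circles for replicates 1 and 2 and triangles for replicates 3 and 4. Microglial Apoe is higher in every Tau+ library than in any Tau- library of its genotype, while the groups overlap for Apoe in astrocytes and for Clu in both classes.

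In astrocytes, the class with most of the Apoe, the groups overlapped. Ch25h+/+ libraries read 3288, 2833, 822 and 3947 CPM of Apoe without tau and 3045, 4381, 3804 and 4729 with it. Those labelled Ch25h-/- read 2936, 2668, 4219 and 4087 without tau and 2307, 2469, 3619 and 3129 with it. The tau effect was 0.49 (SE 0.37, edgeR adjusted p = 0.675) in Ch25h+/+ and -0.29 (SE 0.37, adjusted p = 0.929) in Ch25h-/-, and without Ch25h+/+ Tau- replicate 3 the former was 0.18 (SE 0.22, adjusted p = 0.867). On average over the genotypes it was 0.10 (SE 0.26) and turned to -0.06 without that library. Ch25h loss averaged over both tau states gave -0.05 (SE 0.26, edgeR adjusted p = 1.0).

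Astrocytic Clu was also without a call. Ch25h+/+ libraries read 599, 568, 1267 and 1002 CPM of Clu without tau and 708, 1073, 785 and 1088 with it. Those labelled Ch25h-/- read 539, 493, 748 and 866 without tau and 571, 552, 896 and 936 with it. Within groups, replicates 3 and 4 were above replicates 1 and 2 in 3 of the 4 groups, the same division as in the library split. The average tau effect was 0.08 (SE 0.21, edgeR adjusted p = 0.929) and the average effect of Ch25h loss -0.33 (SE 0.21, adjusted p = 1.0). Among astrocytes with a UMI of Gfap, a gene of reactive astrocytes, Clu was higher than in the rest in 16 of 16 libraries (median ratio 1.24) and Apoe in 15 of 16 (1.13), and depth was not matched between these nuclei.

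Over all classes and libraries, the tau effect on Apoe leaned one way in each genotype, and in this fit it reached the threshold in microglia only. Within replicates 1 and 2 alone, Apoe in OPCs was called for the tau effect in Ch25h-/- (-0.66), for the average tau effect (-0.49) and for the average effect of Ch25h loss (-0.43). The share of all genes called in that fit of 2 libraries per group is not given, so these calls have no background beside them. The tau effect on Apoe in Ch25h+/+ was positive in 9 of 9 classes (median log2 0.57, over all members and classes 20 of 27) and in Ch25h-/- negative in 8 of 9 (median -0.28). Without Ch25h+/+ Tau- replicate 3 the former was positive in 8 of 9, with -0.08 in OPCs. Oligodendrocytes had no overlap between Ch25h+/+ Tau+ and Ch25h+/+ Tau- for Apoe, at 1375 against 749 CPM on average (log2 0.86, SE 0.41, edgeR adjusted p = 0.716), as was so for 2.06% of the genes tested in that class. Without Ch25h+/+ Tau- replicate 3 this was 0.54 (SE 0.20, adjusted p = 0.672). In the 4 neuronal classes, where free RNA could account for all Apoe, the same effect was 0.56 to 0.70, and without that library it was 0.24 to 0.38.

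No member was called in the other contrasts. For the tau effect in Ch25h-/- edgeR called 0 of 27 pairs (DESeq2 0), where 0.157% of all genes tested were called, and 6 pairs had an unadjusted p under 0.05, where 7.72% of all genes did. For Ch25h loss in Tau+ it called 0 (DESeq2 0, background 0.00624%), and 6 pairs had an unadjusted p under 0.05 (background 3.35%). For Ch25h loss in Tau- it called 0 (DESeq2 0, background 0.00268%), and 6 were under the unadjusted threshold (background 3.56%). For the average effect of Ch25h loss it called 0 (DESeq2 0, background 0.00981%, in microglia 0.0117%), and 11 were under it (background 2.79%). The interaction gave 0 (DESeq2 0, background 0%) and 1 under the unadjusted threshold (background 4.2%), Clu in OPCs, chosen after its value was seen. In the tau effect in Ch25h+/+, described above, 3 pairs were under it (background 6.87%). The pairs of a gene share libraries and free RNA over the classes, so they are not independent of each other.

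**Figure D5:**
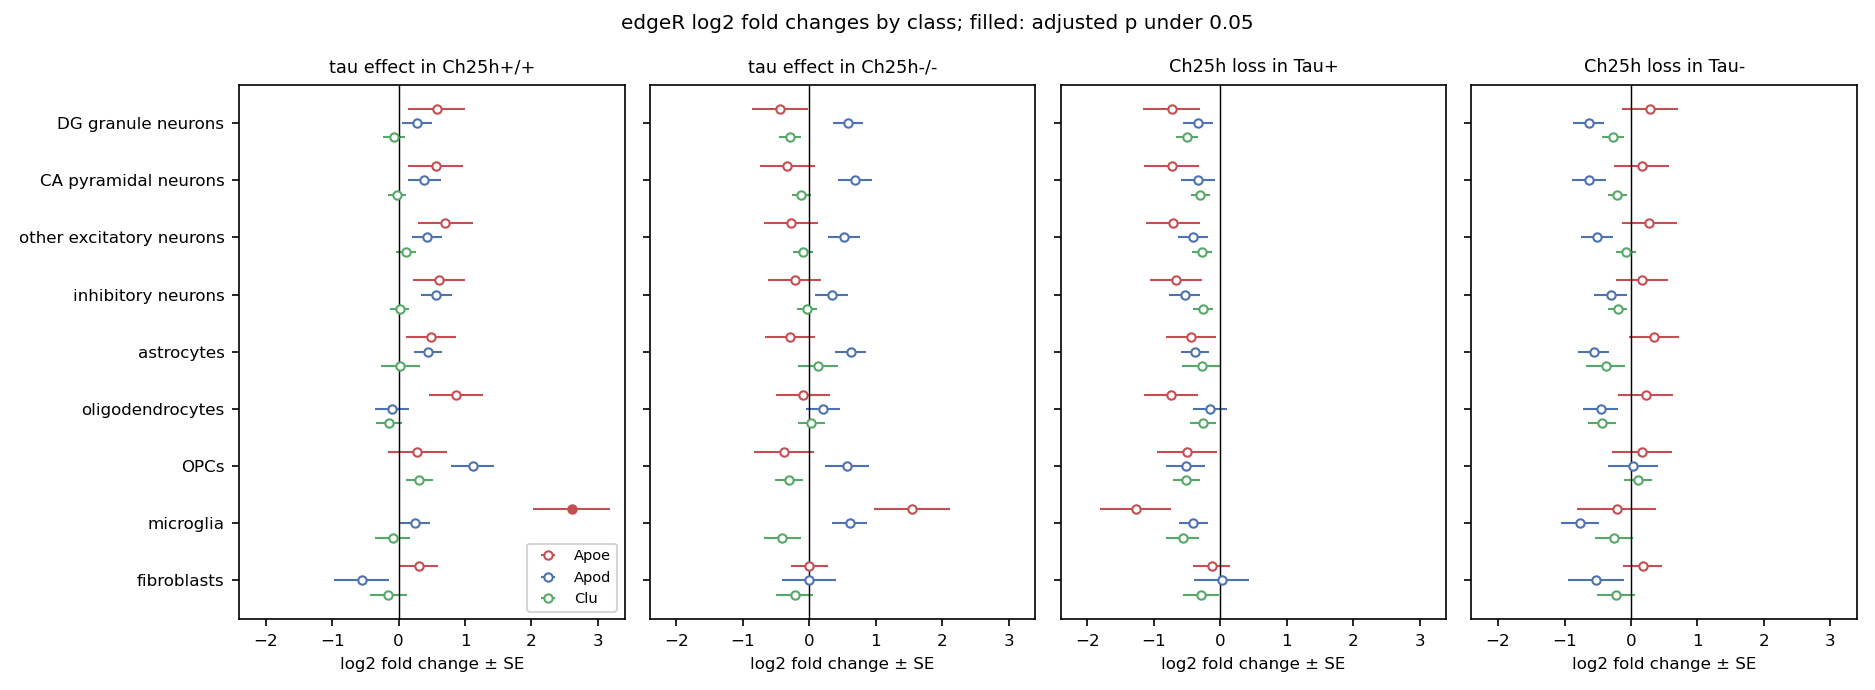
edgeR log2 fold change with its SE (x axis) of Apoe, Apod and Clu in the 9 classes tested (y axis) for the tau effect in each genotype and for Ch25h loss in each tau state, with filled points where adjusted p is under 0.05. The 1 filled point is Apoe in microglia for the tau effect in Ch25h+/+, and Apoe lies right of 0 in all 9 classes there.

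Apod leaned up with tau and down with Ch25h loss, mostly in classes where free RNA could account for it, with no call in the fit reported here. The average tau effect on Apod was positive in 8 of 9 classes, and at an unadjusted p under 0.05 in 7 of them, against 9.84% of all genes tested. None passed the adjusted threshold, but astrocytes did in other fits given below. These 7 classes were the 4 neuronal ones, astrocytes, OPCs and microglia, and free RNA could account for 89.3 to 100% of Apod in each of their groups. In the 2 tested classes in which Apod is high, the effect was 0.05 (SE 0.18) in oligodendrocytes and -0.28 (SE 0.29) in fibroblasts, edgeR adjusted p = 0.956 and 0.999. With the Apod-rich unnamed cluster joined to the oligodendrocytes it was 0.17 (SE 0.18, edgeR adjusted p = 0.806).

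The lowest adjusted p for Apod was 0.0763, in astrocytes (average tau effect 0.53, SE 0.16, edgeR). It was called with the side of the library split, found in these same data, as a block (0.52, edgeR adjusted p = 0.0443) and with no filter on low counts (0.52, edgeR adjusted p = 0.0418). The same effect was called without Ch25h+/+ Tau+ replicate 3 (0.59, edgeR adjusted p = 0.0330) and without Ch25h+/+ Tau- replicate 2 (0.61, edgeR adjusted p = 0.0450). Their libraries read 18.4, 34.9, 24.6 and 25.2 CPM of Apod in Ch25h+/+ Tau- and 37.1, 42.2, 25.6 and 42.4 in Ch25h+/+ Tau+, and those labelled Ch25h-/- read 24.2, 21.7, 10.8 and 17.2 without tau and 29.9, 23.4, 27.8 and 30.8 with it. The groups overlapped in both genotypes. After subtraction of free RNA, 0 CPM of Apod was left in astrocytes of each library.

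Among the classes tested with edgeR, OPCs had the largest change of Apod, with tau in Ch25h+/+ (log2 1.11, SE 0.32, edgeR adjusted p = 0.556). The smaller classes were not fitted and are not part of this ranking. In OPCs, Ch25h+/+ libraries read 12.3, 20.6, 18.3 and 13.6 CPM of Apod without tau and 40.2, 52.6, 25.4 and 26 with it. Those labelled Ch25h-/- read 21.7, 15.9, 19.7 and 12.7 without tau and 43.1, 13.6, 16.5 and 24.9 with it. The Ch25h+/+ groups did not overlap, as for 1.57% of the genes tested in OPCs, and the Ch25h-/- groups did. With no filter on low counts the average tau effect on Apod in OPCs was called (0.84, edgeR adjusted p = 0.0195). OPCs held 18 Apod UMIs per library on average.

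In microglia Apod read 60.3, 42.4, 36.6 and 32.6 CPM in Ch25h+/+ Tau-, 59.3, 60.8, 40.8 and 48.8 in Ch25h+/+ Tau+, 30.3, 34.1, 18.7 and 16.9 in Ch25h-/- Tau- and 37.3, 40.5, 36.4 and 46.6 in Ch25h-/- Tau+. The Ch25h-/- groups did not overlap, against the 4.72% of genes tested there. The average tau effect was 0.42 (SE 0.18, edgeR adjusted p = 0.155) and the average effect of Ch25h loss -0.59 (SE 0.18, adjusted p = 0.9999).

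In the 4 neuronal classes the order of the groups was much alike for Apod. DG granule neurons read 5.66 to 12.9 CPM in Ch25h+/+ Tau-, 8.91 to 14.1 in Ch25h+/+ Tau+, 4.58 to 8.54 in Ch25h-/- Tau- and 8.69 to 11.4 in Ch25h-/- Tau+. CA pyramidal neurons read 3.81 to 8.79, 5.25 to 9.69, 3.02 to 5.17 and 5.25 to 7.65 in the same order. In both classes the Ch25h-/- groups did not overlap, as for 1.64% of the genes tested in DG granule and 1.97% in CA pyramidal neurons, and the Ch25h+/+ groups did. Other excitatory neurons read 5.50 to 9.69, 6.59 to 12.8, 4.03 to 6.79 and 6.41 to 9.04, and inhibitory neurons 5.54 to 10.7, 9.18 to 14.7, 4.02 to 8.74 and 7.07 to 8.70. Average tau effects were 0.43 to 0.54 and average effects of Ch25h loss -0.49 to -0.42 over these 4 classes (edgeR adjusted p = 0.280 to 0.693 and 0.9999 to 1.0). Ch25h loss had a negative sign for Apod in 9 of 9 classes, 6 of them at an unadjusted p under 0.05, against 2.79% of all genes tested.

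Clu was lower in libraries labelled Ch25h-/- in 9 of 9 classes on average over the tau states, 5 of them at an unadjusted p under 0.05 against the same 2.79%, and none was called (edgeR adjusted p = 0.9994 to 1.0). In DG granule neurons Clu read 16.1 to 24.9 CPM in Ch25h+/+ Tau-, 16.2 to 24.3 in Ch25h+/+ Tau+, 14.1 to 22.1 in Ch25h-/- Tau- and 12.2 to 16.4 in Ch25h-/- Tau+ (average effect -0.39, SE 0.12). In CA pyramidal neurons it read 14.7 to 22.3, 15.7 to 21.3, 13.9 to 18.4 and 11.6 to 16.2 (-0.25, SE 0.10). The groups overlapped in both classes.

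In inhibitory neurons Clu read 40.0 to 52.2 CPM in Ch25h+/+ Tau-, 41.6 to 51.1 in Ch25h+/+ Tau+, 32.4 to 48.9 in Ch25h-/- Tau- and 27.3 to 44.1 in Ch25h-/- Tau+ (average effect of Ch25h loss -0.23, SE 0.10). In oligodendrocytes it read 53.1 to 81.8, 42.2 to 87.1, 36.6 to 62.2 and 43.6 to 52.2 (-0.34, SE 0.14). In microglia it read 40.2, 79.8, 79.7 and 65.2 in Ch25h+/+ Tau-, 64.4, 86.3, 49.0 and 46.5 in Ch25h+/+ Tau+, 48.9, 53.8, 41.2 and 72.3 in Ch25h-/- Tau- and 52.2, 25.7, 43.0 and 49.8 in Ch25h-/- Tau+ (-0.41, SE 0.19). The groups overlapped in these 3 classes as well. Apart from inhibitory neurons and astrocytes, free RNA could account for 89.4 to 100% of Clu in each group of the classes named for this effect.

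Counted over all barcodes, nuclei and free RNA together, each member separated at least 1 pair of groups, Apoc1 on few UMIs only. Over all barcodes Apoe read 833 ± 158 CPM in Ch25h+/+ Tau+ (SD, n = 4; 600 to 942), 433 ± 213 in Ch25h+/+ Tau- (116 to 574; 539 ± 30 and at least 520 without replicate 3), 564 ± 115 in Ch25h-/- Tau- (430 to 664) and 474 ± 26 in Ch25h-/- Tau+ (440 to 500). Every Ch25h+/+ Tau+ library was thus above every library of Ch25h+/+ Tau- and of Ch25h-/- Tau+. Such totals cannot tell more cells of a type from more RNA per cell.

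Apod read 148 ± 19 CPM over all barcodes in Ch25h+/+ Tau+ (121 to 162) and 97.0 ± 15 in Ch25h+/+ Tau- (83.8 to 117), then 120 ± 17 in Ch25h-/- Tau+ (110 to 145) and 67.9 ± 15 in Ch25h-/- Tau- (53.7 to 85.1). It was higher with tau in both genotypes with no overlap. Oligodendrocytes, with most Apod UMIs of the named nuclei, made up 13.6 to 19.4% of named nuclei in Ch25h+/+ Tau+, 11.6 to 17.7% in Ch25h+/+ Tau-, 17.3 to 22.5% in Ch25h-/- Tau+ and 6.07 to 15.3% in Ch25h-/- Tau-. Fibroblasts made up 0.423 to 4.84% over the 16 libraries. Their part in the difference was not tested.

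Clu read 161 ± 30 CPM over all barcodes in Ch25h+/+ Tau+ (127 to 196) and 111 ± 17 in Ch25h-/- Tau+ (87.1 to 125), with no overlap, against 132 ± 33 and 119 ± 30 in the Tau- groups. Apoc1 was at 0.234 ± 0.086 in Ch25h-/- Tau+ and 0.418 ± 0.11 in Ch25h-/- Tau-, with no overlap. This rests on 9 to 21 Apoc1 UMIs per library in Ch25h-/- Tau+ and 23 to 42 in Ch25h-/- Tau-, too few to read much from it. Over the 4 members, groups did not overlap with the first one higher in 2 of 4 for the tau effect in Ch25h+/+, where 7.81% of 21500 genes did so. The count was 1 higher and 1 lower for tau in Ch25h-/- (5.09% and 2.48%), 2 lower for Ch25h loss in Tau+ (4.92%) and 0 either way for Ch25h loss in Tau- (0.74% higher, 0.688% lower). Pooled over the genotypes, 0 of 4 separated Tau+ from Tau- (0.847% higher, 0.0884% lower), and pooled over tau, 0 of 4 separated the Ch25h genotypes (0.0186% each way).

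Of the other genes of lipid carriage, Lpl and Npc2 were called, both in microglia. A list of 43 was read: 15 other genes named as apolipoproteins, 13 receptors and binding proteins, 10 genes of lipid loading, efflux and hydrolysis and 5 regulators. Between 15 and 30 of them could be tested in a class, and over 9 classes and 7 contrasts 2 genes were called, both among the 19 tested in microglia and both higher with tau. That is 1 of 19 for the tau effect in Ch25h+/+ and 2 of 19 on average over the genotypes, where 2.38% and 8.86% of all genes tested in microglia were called. Lpl, lipoprotein lipase, read 3.38 ± 2.29 CPM in Ch25h+/+ Tau- (SD, n = 4; 0 to 4.99) and 102 ± 77 in Ch25h+/+ Tau+ (2.72 to 188), and 3.09 ± 3.63 and 67.3 ± 24 in the groups labelled Ch25h-/-. Its tau effect was 4.82 (SE 1.01, edgeR adjusted p = 0.0295) in Ch25h+/+ and 4.49 (SE 0.72, adjusted p = 0.00196) on average, and the Ch25h+/+ groups overlapped through 1 Tau+ library at 2.72.

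Npc2, which carries cholesterol out of lysosomes, read 100 ± 20 CPM in Ch25h+/+ Tau- and 155 ± 34 in Ch25h+/+ Tau+, and 89.8 ± 42 and 136 ± 29 in Ch25h-/-. Its average tau effect in microglia was 0.60 (SE 0.17, edgeR adjusted p = 0.0282). The share that free RNA could account for is not given for Lpl, Npc2 or the other genes of this list. The transporters and receptors of the list that bear on apolipoprotein E, among them Abca1 (highest in microglia, 455 CPM), Abcg1 (oligodendrocytes, 132), Lrp1 (microglia, 379) and Trem2 (microglia, 326), were not called. None of the 15 other genes named as apolipoproteins was called either, and 10 of them had too few UMIs for a test in any class. Those tested in most classes were Apool (9) and Apoo (7), and whether their products carry lipid was not looked at.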

How the data were processed

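The authors deposited UMI counts per gene for every barcode of each library. Per the file headers the matrices are from Cell Ranger 4, while the submitters' processing notes name Cell Ranger 3.1.0 and mm10. Whether introns were counted is not given in the sources used here. Nuclei were barcodes with at least 500 UMIs and 300 genes and at most 5% mitochondrial UMIs. The 0.8% per 1000 nuclei with the highest simulated-doublet score (11045) were removed. The rest were clustered (Leiden, python-igraph 0.11.9) without the members, and a cluster was named where 3 markers of a class were at least 2 times above other nuclei; 16029 nuclei stayed unnamed. Counts summed per library and class were tested with edgeR 4.0.16 (quasi-likelihood, TMM, filterByExpr, 1 mean per group), with Benjamini-Hochberg adjustment over all genes of a class and contrast and a threshold of 0.05; DESeq2 1.42.0 was an alternative. In simulated data made from the microglial sums, with 8337 genes, 54 of 89 genes changed 2-fold and 104 of 109 changed 4-fold were found. Beside these 54 and 104 true calls there were 12 false ones. Expected free RNA was scaled from barcodes under 100 UMIs by markers of other classes. Named pairs of a member and a class averaged 10 UMIs a library or more and were called, or had an unadjusted p under 0.05 in an averaged contrast; Apoe and Clu in astrocytes and microglia were named in any case, and Apoe in oligodendrocytes after its values were seen. The members and gene lists were chosen with earlier results of these data known.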

Additional observations from a re-analysis of the deposited data

Results flagged for a closer look

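Among 76 sets of 4 libraries checked, 2 held a library whose gap to its neighbour took most of the set's range. Chance gives about 1 in 20, so the count of 2 does not stand out by itself. The 76 sets share the same 16 libraries, so this count is no test of either flag. What lies behind them was not tested. Apoe over all barcodes read 115.9 CPM in Ch25h+/+ Tau- replicate 3, where the other 3 libraries of that group read 520 to 574. Apoc1 over all barcodes read 0.587 CPM in Ch25h-/- Tau- replicate 3, where the other 3 read 0.351 to 0.375. These are 42 UMIs against 23 to 25.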

How the results depend on the processing

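The number of members called for the tau effect in Ch25h+/+ was 1, and became 0 within replicates 1 and 2, 0 within replicates 3 and 4, 0 with free RNA subtracted (with or without Ch25h+/+ Tau- replicate 3), and 0 to 1 on leaving out a library (0 in 13 of 16). For the average tau effect it was 1, and became 3 with no filter on low counts (adding Apod in astrocytes and OPCs), 2 with the side of the library split as a block (adding Apod in astrocytes), 2 within replicates 1 and 2 (Apoe in microglia and, at -0.49, in OPCs), 0 within replicates 3 and 4, and 1 to 2 on leaving out a library, where the second was Apod in astrocytes without Ch25h+/+ Tau+ replicate 3 (edgeR adjusted p = 0.0330) or Ch25h+/+ Tau- replicate 2 (0.0450). Within replicates 1 and 2 the Ch25h-/- tau effect had a count of 1 and the average Ch25h effect a count of 1, each from Apoe in OPCs (-0.66 and -0.43). The cause of these changes was not tested, beyond the fewer libraries in each subset. Shares of all genes called are given for the main fit only, so these other counts have no background beside them.

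Some fold changes without a call turned sign. Apoe in astrocytes turned for the average tau effect to -0.033 within replicates 1 and 2 and -0.058 with free RNA subtracted and without Ch25h+/+ Tau- replicate 3, with a range of -0.056 to 0.22 on leaving out a library, and for the average Ch25h effect to 0.25 within replicates 3 and 4, with a range of -0.20 to 0.080. Apoe in microglia turned for Ch25h loss in Tau- to 0.98 within replicates 3 and 4, with a range of -0.54 to 0.14. The interaction for Apoe in microglia turned from -1.06 to 0.22 with free RNA subtracted and without Ch25h+/+ Tau- replicate 3. Clu in astrocytes turned for the average tau effect to -0.063 within replicates 3 and 4, with a range of -0.00026 to 0.20. Of 747 recomputed values for single members and classes, 710 kept their direction and side of the threshold, 18 lost and 5 gained the call, and 14 turned. Of 269 recomputed counts and levels, 244 stayed and 25 moved. A level counted as moved only where its mean shifted by at least its SD over the libraries. Leaving out 1 of 16 libraries cannot shift a mean that far, so those levels were bound to stay and show no stability. Subtracting free RNA and leaving out that library together, and adding to the oligodendrocytes an Apod-rich cluster left unnamed, were chosen after seeing the data. The latter changed none of the 7 counts of members called. No paired analysis was possible because the labels carry no replicate numbers. The side of the library split, which follows the order of deposit in each group, was fitted as a block in its place. The side was found in these same data, so the block takes out spread by construction and a lower adjusted p with it is no independent support. Depth limits Apoc1, with 74 UMIs in astrocytes, and the small classes.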
